A study of Mus musculus with 22 samples.

Results

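Cardiac fibroblasts from mice 5 days after myocardial infarction (MI) were compared with cardiac fibroblasts from mice 10 days after transverse aortic constriction (TAC). The comparison used 5 of the 22 libraries of the study, 2 of MI and 3 of TAC, and every gene of its expression table. All mice were wild-type C57BL/6 males of 10 to 14 weeks, with no transgene or drug. The labels give MI and TAC only as abbreviations, which were read as above. They do not say which region of the infarcted heart was used, how the cells were purified, or whether each library came from a separate animal, so p-values reflect only how far these libraries differ, which may be technical. The groups differ in time after surgery as well as in injury, and both MI titles carry a string of digits that no TAC title has. Injury, time and whatever that string marks cannot be told apart. The other 14 fibroblast libraries (3 day sham and 3 day TAC, sedentary, and 4 and 10 day swim) served for the estimate of the spread and as reference levels.

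After an infarct, heart muscle dies and is replaced by a scar, and the tissue passes from an inflammatory phase into one in which fibroblasts divide, contract and lay down collagen. Constriction of the aorta leaves the muscle alive but makes the left ventricle pump against a raised pressure, and collagen is then added between the surviving muscle cells. Fibroblasts are the main collagen-producing cells of the heart in both settings. They also secrete cytokines, growth factors and proteases, and they can take on contractile proteins as myofibroblasts.

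Expression was measured as FPKM, a density of sequenced fragments scaled to transcript length and library size. Of 23359 genes, 9425 reached an FPKM of 1 in at least 2 fibroblast libraries and were tested on log2(FPKM + 1) with limma. At a Benjamini-Hochberg adjusted p under 0.05, 2558 genes (27.1%) were higher in MI and 2839 (30.1%) were lower, 57.3% in all. These calls followed transcript length. Across genes, the rank correlation (Spearman's rho) of fold change with length was 0.576, and with GC content it was -0.439, given as descriptions because genes are not independent replicates. In the 2336 genes with the shortest transcripts, up to 1708 bases, 4.97% were higher in MI and 62.8% lower, and in the bin of equal size with the longest, from 4263 bases, 58.6% were higher and 6.25% lower. The 5 libraries differed in the same way. The slope of log2 expression per doubling of transcript length was -0.225 and -0.233 in the MI libraries and -0.640, -0.665 and -0.796 in the TAC libraries.

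A smooth trend on length and GC content was therefore removed from each library and the fit was repeated. The correlation with length was then 0.00877, and between 14.2% and 17.4% of genes were higher and between 22.5% and 25.6% lower in each of 4 bins of length. After this removal 1513 genes (16.2%) were higher and 2231 (23.9%) lower of 9342 with a known length, 40.1% in all. The 2 fits shared 1100 genes higher in MI (11.8%) and 1548 lower (16.6%), 28.3% in all, and 76 genes went from higher to lower and 31 from lower to higher. The shared counts depended on single libraries, at 481 higher and 844 lower without MI replicate 2 and 727 higher without TAC replicate 3. In what follows, "rose" and "higher" (in MI) or "fell" and "lower" (in MI) are used of genes called in the same direction in both fits, unless a single fit is named. Fold changes are log2 values of MI minus TAC as deposited, followed by the value with the trend removed. Counts of genes that rose or fell in a list stand beside the shares over all genes, 11.8% and 16.6%. The added 1 understates the change of genes with low FPKM. In the authors' deposited table, 892 of the 1065 shared higher genes that it tests (83.8%) and 1323 of 1530 shared lower genes (86.5%) were also significant in the same direction, and 0 in the opposite one.

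**Figure D1:**
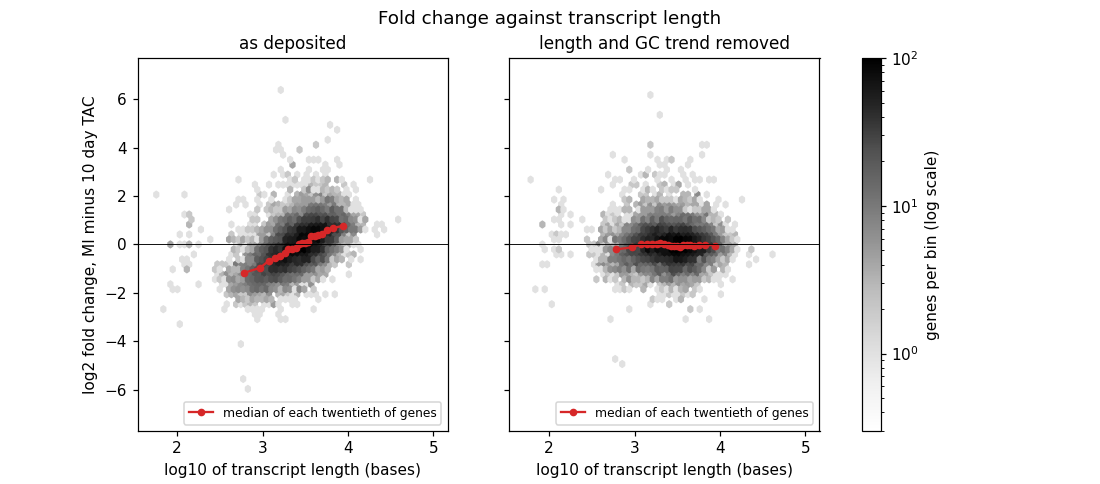
Log2 fold change of MI minus 10 day TAC (vertical axis) against the log10 of transcript length in bases (horizontal axis) for genes tested, as deposited (left) and with the length and GC trend removed (right). Shading is the number of genes and red points are medians of each twentieth of the genes. The slope on the left, a rank correlation of 0.576, is nearly flat on the right, at 0.00877.

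The division by length ran through the whole series. The 7 sedentary, sham and MI libraries had slopes between -0.306 and -0.178 log2 units per doubling, and the 12 TAC and swim libraries slopes between -0.925 and -0.543. MI and TAC thus lay on opposite sides of it, so the division and the injury cannot be told apart from these 5 libraries alone. The other groups give a reading of where each gene stands. With the trend removed, 341 of the 1100 higher genes (31.0%) had both MI libraries beyond all 17 other fibroblast libraries, whereas for 181 (16.5%) all sedentary, sham and MI libraries lay beyond all TAC and swim libraries. Of the 1548 lower genes, 130 (8.40%) had MI beyond all others, 187 (12.1%) had the 10 day TAC libraries beyond all others, and 748 (48.3%) followed the division. Rn45s, the precursor of ribosomal RNA, which selection for poly-A tails should leave out, was at 1289 and 120 FPKM in MI and at 911, 1798 and 6988 in TAC.

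The libraries held fibroblast transcripts. Pdgfra, a receptor that marks cardiac fibroblasts, was at 9.93 and 9.22 FPKM in MI and at 6.74, 4.04 and 2.14 in TAC. Tcf21, a transcription factor of the same lineage, was at 22.5 and 6.94 in MI and at 23.1, 19.3 and 18.5 in TAC. For Pdgfra the fold change was 1.09 (adjusted p = 0.00515) as deposited and 0.44 (adjusted p = 0.172) with the trend removed. Without TAC replicate 1, Pdgfra passed with the trend removed too (0.74, adjusted p = 0.0161). Tcf21 did not pass either test (-0.63, adjusted p = 0.193), but as deposited it passed without MI replicate 1 (-1.42, adjusted p = 0.0142). Transcripts of other cell types were also present, and their sums are given beside the gene groups they move with. In bulk RNA, fewer cells of a type and less RNA per cell cannot be told apart.

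Matrix genes were higher in MI. Of 7 fibrillar collagen chains tested, 6 rose, beside 11.8% of all genes, with a median log2 fold change of 1.78 (1.64 with the trend removed) beside -0.01 and -0.04 over all genes tested. Col1a1, the alpha 1 chain of type I collagen, the main protein of scar, was at 539 and 658 FPKM in MI and at 129, 164 and 253 in TAC. Col3a1, the chain of type III collagen, which forms finer and more compliant fibrils, was at 493 and 424 in MI and at 91.1, 89.0 and 66.0 in TAC. The groups did not overlap for either gene. Col1a1 was higher by 1.76 (SE 0.37, adjusted p = 0.000792) and by 1.64 with the trend removed, and Col3a1 by 2.48 (SE 0.40, adjusted p = 9.85e-05) and 2.14. Sedentary fibroblasts held 16.3 to 29.6 FPKM of Col1a1 and 13.1 to 33.9 of Col3a1, so TAC stood above sedentary and MI above TAC.

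The companion chain Col1a2 was at 403 and 471 FPKM in MI and at 99.9, 110 and 121 in TAC (1.98, adjusted p = 0.000103, and 1.79). Col5a1 (1.78) and Col5a2 (2.21), chains of type V collagen, which starts and limits the width of type I fibrils, rose as well, and Col2a1, the chain of cartilage collagen, rose by 1.51. The chain that did not pass was Col5a3, which was lower with a trend on length only removed (-0.89, adjusted p = 0.00143). Of 14 network, beaded and fibril-associated collagens tested, 6 rose, or 3 without MI replicate 1. Col12a1, which decorates type I fibrils, was at 5.95 and 9.39 FPKM in MI and at 0.355, 0.463 and 0.497 in TAC (2.56, adjusted p = 2.14e-09, and 1.75). Col14a1, another fibril-associated chain, was 2.04 higher and Col16a1, of the same kind, 0.84 higher, a call that ended with a trend on length only (0.32, adjusted p = 0.0678).

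Enzymes that mature collagen rose with it, 9 of 20 tested beside the same 11.8% of all genes. Lox, lysyl oxidase, which cross-links collagen and elastin, was at 119 and 145 FPKM in MI and at 7.26, 12.3 and 12.4 in TAC. The lowest MI library lay far above the highest TAC library, and the fold change was 3.54 (SE 0.30, adjusted p = 5.09e-07) and 2.85 with the trend removed. Sedentary libraries held 5.07 to 8.67 FPKM, near the TAC level. Plod2, which hydroxylates collagen lysines for stable cross-links, was 1.97 higher, P4ha3, a prolyl hydroxylase subunit, 1.90 higher, and Bmp1, the protease that trims the procollagen C-terminus, 1.48 higher. Mia3, which helps load bulky procollagen into transport carriers, was 1.45 higher, but for this gene all sedentary, sham and MI libraries lay above all TAC and swim libraries.

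Matricellular proteins, which sit in the matrix and signal to cells without forming fibres, rose in 10 of 22 tested. Tnc, tenascin-C, which appears in healing wounds, was at 39.5 and 91.4 FPKM in MI and at 1.20, 1.47 and 1.56 in TAC. The TAC libraries were at the low end of the sedentary range of 1.41 to 6.21. The fold change was 4.67 (SE 0.37, adjusted p = 3.1e-07) and 4.24. Postn, periostin, the usual marker of activated cardiac fibroblasts, was at 421 and 370 FPKM in MI and at 49.96, 69.1 and 44.9 in TAC, beside 4.44 to 9.68 in sedentary fibroblasts. It rose by 2.85 (SE 0.40, adjusted p = 3.27e-05) and 2.36, so that TAC stood between sedentary and MI.

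Spp1, osteopontin, was at 34.3 and 110 FPKM in MI and at 1.72, 3.24 and 4.64 in TAC (3.96, adjusted p = 7.42e-06, and 4.08). The MI libraries did not overlap with 10 day TAC, but the 3 day TAC libraries, at 33.2 to 44.3 FPKM, reached the lower of them. Thbs1, thrombospondin 1, an activator of latent TGF-beta, was at 359 and 656 FPKM in MI and at 20.4, 22.5 and 34.7 in TAC (4.21, adjusted p = 0.000859, and 3.72). Its sedentary range of 164 to 496 overlapped with MI, and as deposited all sedentary, sham and MI libraries lay above all TAC and swim libraries. Cthrc1, a secreted protein of collagen-producing fibroblasts, was at 114 and 131 in MI and varied from 5.90 to 20.9 and 77.9 in TAC (2.43, adjusted p = 0.00638, and 2.84), while sedentary libraries were at 0.107 to 0.237. With only the 5 libraries in the fit its adjusted p was 0.104. Comp, the cartilage oligomeric matrix protein, did not pass as deposited (0.43, adjusted p = 0.0962) and was higher with the trend removed (0.84, adjusted p = 0.00545), which did not hold once MI replicate 1 was left out (adjusted p = 0.084). As deposited it passed without TAC replicate 3 (0.58, adjusted p = 0.0417).

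The 250 bases before the RefSeq start of Tnc (chr4:64047016-64047265, minus strand, GRCm38.p6) and of Postn (chr3:54360857-54361106, plus strand) are shown because these genes separate the groups at high levels. Capitals mark motif letters found by search, here a TATA box (TATAAA) in both and a C/EBP motif (TTGCNNAA, either strand) in Postn.
Tnc: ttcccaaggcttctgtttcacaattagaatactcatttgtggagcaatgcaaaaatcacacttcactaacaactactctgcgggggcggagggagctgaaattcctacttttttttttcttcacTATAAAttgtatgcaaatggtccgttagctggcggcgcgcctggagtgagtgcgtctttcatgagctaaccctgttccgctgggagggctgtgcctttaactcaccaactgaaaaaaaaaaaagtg
Postn: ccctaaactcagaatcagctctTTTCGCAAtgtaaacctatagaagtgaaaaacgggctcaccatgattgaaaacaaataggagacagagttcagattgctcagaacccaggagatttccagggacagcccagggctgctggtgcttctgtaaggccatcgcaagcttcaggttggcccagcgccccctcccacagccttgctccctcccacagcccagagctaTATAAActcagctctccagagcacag
Counted back from the start, with -1 as the last base of the window, the TATA box lay at -26 to -21 in Postn and at -126 to -121 in Tnc. The same search found TATAAA in 12.4% of all 32851 promoter windows of the table and in 7.25% of windows of the genes tested. It was found in 8.84% of windows of the genes higher in MI and in 6.14% of those lower. A match of letters is not evidence of binding.

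In the elastic fibre list, 7 of 18 genes rose, a count that fell to 3 without MI replicate 2 and 4 without TAC replicate 3. Fn1, fibronectin, the provisional matrix on which collagen is assembled, was at 170 and 255 FPKM in MI and at 15.9, 23.1 and 27.0 in TAC (3.22, adjusted p = 1.98e-06, and 2.78). Ltbp2, a microfibril-associated protein, was 1.90 higher, at 30.1 and 34.0 against 6.05, 7.83 and 10.0. Eln, elastin itself, did not follow. It was at 94.0 and 35.3 FPKM in MI and at 78.7, 102 and 103 in TAC, overlapping groups that both stood above the sedentary range of 3.19 to 6.61 (-0.69, adjusted p = 0.109). Without MI replicate 1 it was lower in both fits (-1.39, adjusted p = 0.00844, and -1.29). It also passed with a trend on length only removed (-1.03, adjusted p = 0.0304). Mfap5, a microfibril glycoprotein, was the member that fell (-0.88). Its shared call was lost without MI replicate 2 (adjusted p = 0.105 as deposited), TAC replicate 2 or TAC replicate 3, and with a trend on length only (-0.37, adjusted p = 0.22).

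Proteoglycan and hyaluronan genes rose in 9 of 20 tested. Cd44, the hyaluronan receptor, was at 41.0 and 52.5 FPKM in MI and at 8.70, 5.75 and 3.24 in TAC (2.86, adjusted p = 0.00118, and 2.12). Its call with the trend removed was lost without MI replicate 2 (adjusted p = 0.07). Tnfaip6, which transfers heavy chains to hyaluronan in inflamed tissue, was 2.87 higher, and Vcan, versican, 2.19 higher. Sedentary libraries held 86.6 to 164 FPKM of Tnfaip6, a range that holds both MI values, 126 and 102. They held 5.86 to 13.0 FPKM of Vcan, beside 11.1 and 13.8 in MI. As deposited, all sedentary, sham and MI libraries lay above all TAC and swim libraries for Vcan. Prelp, a leucine-rich proteoglycan, fell by 1.74. Runx2, the master transcription factor of bone, was at 2.09 and 2.29 FPKM in MI and at 0.326, 0.252 and 0.338 in TAC (1.29, adjusted p = 9.98e-08, and 0.77).

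**Figure D2:**
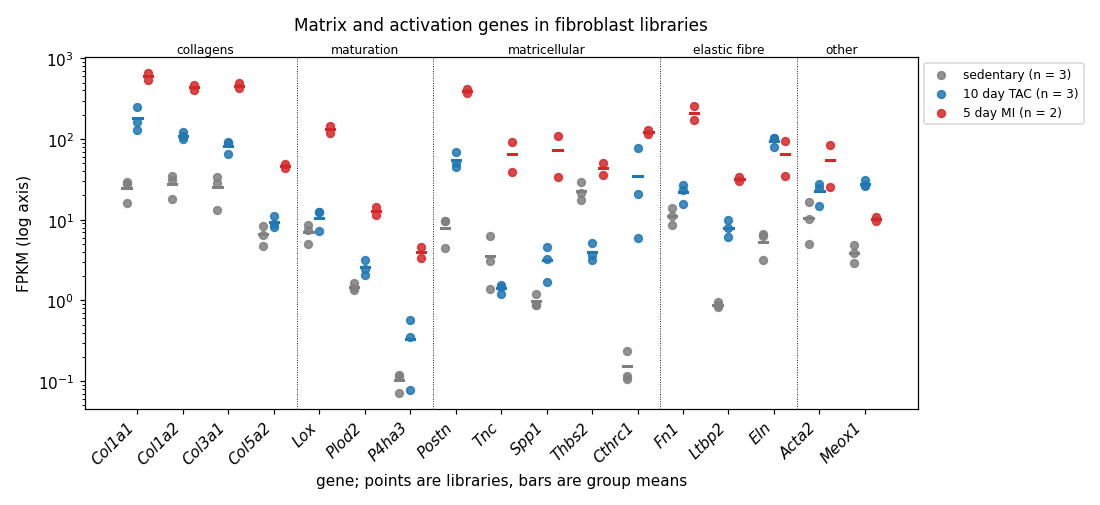
FPKM on a log axis of matrix and activation genes in each sedentary (grey, n = 3), 10 day TAC (blue, n = 3) and 5 day MI (red, n = 2) fibroblast library; bars are group means. Lox, Postn, Tnc and Fn1 are higher in both MI libraries than in any TAC library, while Meox1 is lower, at 10.8 and 9.72 against 26.3 to 31.3.

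Among transcription factors, the regulators of the activated state did not move together. Meox1, a homeobox factor switched on in stressed cardiac fibroblasts, was at 10.8 and 9.72 FPKM in MI and at 26.3, 31.3 and 26.6 in TAC. It fell by 1.37 (SE 0.21, adjusted p = 7.36e-05) and by 1.16 with the trend removed. Sedentary libraries held 2.91 to 4.86 FPKM and 3 day TAC libraries 12.5 to 17.1, so the 10 day TAC libraries were the highest of the series. Prrx1, a mesenchymal homeobox factor, was by contrast at 8.05 and 12.2 in MI and at 1.91, 1.38 and 1.21 in TAC (2.14, adjusted p = 2.04e-05, and 1.31). Zeb2, a repressor of epithelial genes, was 2.35 higher, with sedentary, sham and MI above TAC and swim. Twist1, a mesenchymal factor, was 0.91 higher. In all, 8 of 25 factors rose (32%, beside 11.8% of all genes), and fewer did so without MI replicate 2. The 4 that fell (16%, near the 16.6% of all genes) included Gata4 (-0.65), a cardiac zinc-finger factor, and Hic1 (-0.86), a repressor that keeps mesenchymal progenitors quiescent.

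Contractile and adhesion genes rose in 17 of 24 tested, but only 6 did so without MI replicate 2. Acta2, the smooth muscle actin of myofibroblasts, was at 25.5 and 83.8 FPKM in MI and at 24.5, 15.0 and 27.8 in TAC. The lower MI library lay inside the TAC range. Its fold change of 1.06 (adjusted p = 0.0472) did not pass without MI replicate 2 (adjusted p = 0.72) or with TAC replicate 1 or 2 left out (0.06 and 0.15), or with only the 5 libraries in the fit (adjusted p = 0.112). Of the 24 members, 18 had both MI libraries above all TAC libraries and 3 had both below (37.1% and 37.9% of all genes did). Among those above were Itgav, an integrin subunit that binds fibronectin and latent TGF-beta (14.1 and 17.8 against 2.22, 1.87 and 1.14 FPKM, 2.64, adjusted p = 7.13e-06), Cdh2, N-cadherin (1.99, adjusted p = 5.02e-08), and Vcl, vinculin of focal adhesions (1.84, adjusted p = 3.47e-05). All 3 kept their calls in both fits without each library.

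Matrix proteases and their inhibitors rose in 14 of 29 tested, 9 without MI replicate 1 and 7 without MI replicate 2. Mmp19, a stromal metalloproteinase, was at 6.56 and 7.18 FPKM in MI and at 1.33, 0.865 and 0.761 in TAC (2.0, adjusted p = 1.62e-06, and 1.7), and Adam12, a membrane metalloproteinase of injured mesenchyme, rose from 0.122, 0.175 and 0.0699 in TAC to 2.46 and 4.52 in MI (1.96, adjusted p = 5.04e-08, and 1.36). The inhibitors went in opposite directions. Timp1 was at 95.1 and 191 FPKM in MI and at 31.9, 45.1 and 69.9 in TAC (1.51, adjusted p = 0.0175, and 2.40). As deposited, its call was lost without MI replicate 2 (adjusted p = 0.2) or once TAC replicate 1 was left out (adjusted p = 0.063), and its listed locus spans another gene. Timp4, an inhibitor prominent in heart, was at 1.33 and 0.415 FPKM in MI and at 4.4, 6.87 and 8.28 in TAC (-2.02, adjusted p = 0.000217, and -2.60).

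Secreted inflammatory proteins held the largest rises among the genes named by size, Cxcl5 and Ptx3. Of 30 chemokines and cytokines tested, 8 rose (26.7%, beside 11.8% of all genes), and fewer did so without MI replicate 2. Cxcl5, a chemokine that attracts neutrophils (chromosome 5), was at 89.6 and 133 FPKM in MI and at 0.386, 0.419 and 0.338 in TAC. Its mean was 292 times higher in MI, and the fold change was 6.32 (SE 0.91, adjusted p = 7.66e-05) and 6.26. The low group was 10 day TAC, since sedentary libraries held 7.63 to 100 FPKM and 3 day TAC libraries 7.84 to 24.2. Il33, an alarmin of stromal nuclei, was at 15.6 and 46.8 in MI and at 0.980, 0.837 and 0.832 in TAC (3.90, adjusted p = 0.000206, and 3.53). Sedentary libraries held 3.5 to 25.5 FPKM of Il33, and 10 day TAC lay below all 16 other fibroblast libraries. Il1rl1, the receptor of Il33, was 2.41 higher. Ccl5, a chemokine for T cells and monocytes, was at 17.7 and 29.0 in MI and at 2.15, 2.68 and 3.44 in TAC (2.67, adjusted p = 0.00143, and 3.72). For Ccl5 the sedentary libraries (39.5 to 154 FPKM) lay above MI, and all sedentary, sham and MI libraries lay above all TAC and swim libraries.

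Il6, the cytokine that drives acute phase signalling, was at 93.2 and 162 FPKM in MI and at 12.4, 15.7 and 8.68 in TAC (3.26, adjusted p = 0.00869, and 2.88). It lost its call without MI replicate 2 (adjusted p = 0.075). Ptgs2, the inducible cyclooxygenase of prostaglandin synthesis, was at 228 and 296 in MI and at 14.5, 18.4 and 8.99 in TAC (4.18, adjusted p = 0.000637, and 3.40). Ptx3, a soluble pattern-recognition protein, was at 170 and 165 in MI and at 3.79, 4.33 and 3.52 in TAC (5.12, adjusted p = 0.0018, and 5.38). Sedentary fibroblasts held 54.3 to 247 FPKM of Il6, 45.1 to 200 of Ptgs2 and 95.8 to 307 of Ptx3. MI lay within the sedentary range for Il6 and Ptx3 and above it for Ptgs2, and 10 day TAC lay below it for all 3 genes.

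Genes of the TGF-beta family were called about as often as all genes. Of 24 tested, 3 rose (12.5%, beside 11.8% of all genes), with a median of -0.22, and 2 fell (8.33%, beside 16.6%). Inhba, the beta A chain from which activin A is made, was at 31.6 and 69.3 FPKM in MI and at 0.334, 1.21 and 0.337 in TAC (4.92, SE 0.66, adjusted p = 4e-05, and 4.03). No other fibroblast library exceeded 11.7 FPKM. Fst, follistatin, which binds and blocks activin, rose beside it, from 0.200, 0.0896 and 0.145 in TAC to 2.35 and 5.74 in MI (2.06, adjusted p = 2.02e-05, and 1.76). Tgfb2, a TGF-beta isoform, was at 17.7 and 21.8 in MI and at 1.12, 1.37 and 0.679 in TAC (3.34, adjusted p = 1.82e-05, and 2.75). The members that fell were Bmp4 (-1.01), a bone morphogenetic protein, and Acvrl1 (-0.97), a receptor chiefly of endothelial cells. With the trend removed, Bmp4 did not pass when MI replicate 2 (adjusted p = 0.29), TAC replicate 1 (0.091) or TAC replicate 2 (0.11) was left out. The falls numbered 4 without MI replicate 1 and 1 without MI replicate 2 or TAC replicate 1.

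Of 30 growth factor genes, 9 rose (30%, beside 11.8% of all genes), and fewer did so without MI replicate 2. Ereg, epiregulin, a ligand of the EGF receptor, was at 17.6 and 30.4 FPKM in MI and at 0.308, 0.472 and 0.287 in TAC (4.16, adjusted p = 1.82e-05, and 3.40). Hbegf, another EGF receptor ligand, was at 20.1 and 23.0 in MI and at 2.46, 4.00 and 3.30 in TAC (2.42, adjusted p = 5.54e-06, and 2.44). Both lay above the sedentary ranges of 0.980 to 5.53 and 5.75 to 7.50 FPKM. Fgf7, a fibroblast factor for epithelium, was 1.78 higher. Igfbp4, a binding protein of insulin-like growth factors, fell from 186, 141 and 159 in TAC to 55.7 and 31.6 in MI (-1.92, adjusted p = 1.55e-05, and -1.97). For Igfbp4 all sedentary, sham and MI libraries lay below all TAC and swim libraries.

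The promoter windows of Il6 (chr5:30012864-30013113, plus strand, GRCm38.p6), Ptgs2 (chr1:150099781-150100030, plus strand) and Inhba (chr13:16011601-16011850, plus strand) are shown because these genes, which encode secreted signals or an enzyme that makes one, were higher in MI with groups that did not overlap. Capitals mark motifs found on either strand, a kappaB motif, an AP-1 motif (TGANTCA), the C/EBP motif and the TATA box.
Il6: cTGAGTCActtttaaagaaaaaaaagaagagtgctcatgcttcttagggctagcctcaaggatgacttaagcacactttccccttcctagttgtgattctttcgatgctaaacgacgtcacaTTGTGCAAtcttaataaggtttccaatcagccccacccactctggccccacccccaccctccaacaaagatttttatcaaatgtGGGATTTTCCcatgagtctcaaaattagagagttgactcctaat
Ptgs2: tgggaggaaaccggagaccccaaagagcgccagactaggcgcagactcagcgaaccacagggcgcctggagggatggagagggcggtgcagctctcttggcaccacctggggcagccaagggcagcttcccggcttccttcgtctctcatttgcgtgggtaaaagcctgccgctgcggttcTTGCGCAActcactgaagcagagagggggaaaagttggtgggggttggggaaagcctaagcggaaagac
Inhba: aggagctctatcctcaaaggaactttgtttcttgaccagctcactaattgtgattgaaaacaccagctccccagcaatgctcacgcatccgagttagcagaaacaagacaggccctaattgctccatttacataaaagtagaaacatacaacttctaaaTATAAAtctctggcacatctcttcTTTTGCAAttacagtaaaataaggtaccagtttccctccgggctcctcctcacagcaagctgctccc
The C/EBP letters, the motif shared by these windows, lay at -128 to -121 in Il6, -69 to -62 in Ptgs2 and -67 to -60 in Inhba. They were found in 9.56% of all windows and 8.09% of windows of genes tested. The shares were 9.53% for windows of higher genes and 8.02% for windows of lower genes. The kappaB letters of Il6, GGGATTTTCC, lay at -44 to -35. That motif was found in 1.41% of all windows, 1.51% of windows of genes tested, 1.47% of higher and 1.26% of lower genes. AP-1 letters were in 6.75% of all windows, 4.99% of windows of genes tested, 7.07% of higher and 4.46% of lower genes. No window was found for Cxcl5, Cthrc1, Col1a1, Meox1 and Ccl5 in the table.

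**Figure D3:**
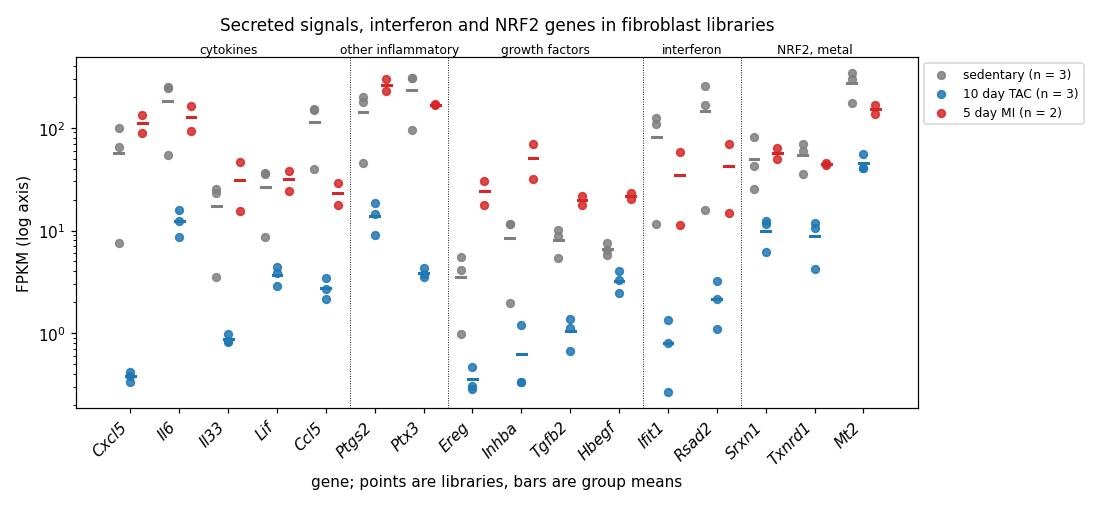
FPKM on a log axis of secreted signals, interferon-stimulated genes, NRF2 targets and Mt2 in each sedentary (grey, n = 3), 10 day TAC (blue, n = 3) and 5 day MI (red, n = 2) fibroblast library; bars are group means. TAC libraries are lowest for all genes shown, and for Inhba, Ereg, Tgfb2 and Hbegf both MI libraries also lie above the sedentary ones.

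Most interferon-stimulated genes had both MI libraries above TAC, but their levels varied between the MI libraries. Of 32 tested, 26 had both MI libraries above all TAC libraries (37.1% of all genes did), and 5 rose (15.6%, beside 11.8% of all genes). Ifit1, an antiviral protein, was at 11.3 and 57.5 FPKM in MI and at 0.809, 1.35 and 0.268 in TAC (3.94, adjusted p = 0.00592, and 3.55). The list's count was 0 without MI replicate 2, 8 without MI replicate 1 and 3 without TAC replicate 1 or 3, and Ifit1 lost its call without MI replicate 2 (adjusted p = 0.093). Sedentary libraries ranged from 11.5 to 124 FPKM of Ifit1. Of 20 complement and acute phase genes, 6 rose (30%, beside 11.8% of all genes). C3, the central complement protein, was at 52.5 and 24.0 in MI and at 11.8, 4.67 and 3.81 in TAC (2.38, adjusted p = 0.000542, and 2.11). Sedentary libraries held 47.5 to 111 FPKM of C3. With the trend removed, 10 day TAC lay below all 16 other fibroblast libraries for this gene. Saa3, a serum amyloid protein made at sites of inflammation, was at 7.83 and 22.7 against 0.742, 0.317 and 0.754 (3.18, adjusted p = 0.000251, and 3.19).

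Of 29 genes of the NRF2 antioxidant response, 7 rose (24.1%, beside 11.8% of all genes) and 3 fell (10.3%, beside 16.6%). Without MI replicate 1 there were 2 that rose, without MI replicate 2 there were 3 that rose and 1 that fell, and without TAC replicate 3 there were 3 that rose. Srxn1, sulfiredoxin, which reactivates peroxiredoxins, was at 64.2 and 49.2 FPKM in MI and at 12.2, 11.5 and 6.17 in TAC (2.43, adjusted p = 0.00662, and 2.48). Its call with the trend removed was lost without MI replicate 1 (adjusted p = 0.056). Sedentary libraries held 25.2 to 80.9 FPKM of Srxn1, a range that holds both MI values. The 3 that fell, Gpx1, Gpx4 and Sod1, are short transcripts of antioxidant enzymes. For Gpx1 and Gpx4 all sedentary, sham and MI libraries lay below all TAC and swim libraries. With the trend removed, the call of Gpx1 was lost without MI replicate 1 or 2 (adjusted p = 0.063 and 0.07), and that of Sod1 without MI replicate 2 (adjusted p = 0.055). The metal-binding Mt2 was at 138 and 166 in MI and at 56.0, 40.4 and 40.8 in TAC (1.72, adjusted p = 0.00546, and 2.86). Sedentary libraries, at 174 to 341 FPKM of Mt2, lay above MI, and 10 day TAC lay below all 16 other fibroblast libraries. Mt1, at 82.5 and 94.2 against 81.0, 54.5 and 64.1, passed only with the trend removed (1.21, adjusted p = 0.00938, and as deposited 0.42, adjusted p = 0.188). That call of Mt1 was not kept without MI replicate 2. Hmox1, heme oxygenase 1, passed only with the trend removed (2.21, adjusted p = 0.0273), and not without MI replicate 1, MI replicate 2 or TAC replicate 3 (adjusted p = 0.094 for the last). Sedentary libraries held 227 to 642 FPKM of Hmox1, above the 179 and 166 of MI. Of 31 genes of the secretory pathway, 9 rose (4 without MI replicate 2), among them the chaperone Hsp90b1 (28.9 and 44.1 against 12.1, 11.3 and 4.68 FPKM, 1.92, adjusted p = 0.000259).

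Macrophage transcripts moved with these inflammatory genes in part. Of 24 macrophage and monocyte markers tested, 6 rose and 2 fell (1 fell without MI replicate 2 or TAC replicate 1), and the summed FPKM of 25 markers was 1585 and 1687 in MI and 1390, 1009 and 949 in TAC. Those that rose were 25% of the markers tested and those that fell 8.33%, beside 11.8% and 16.6% of all genes. Among those that fell was Ly6c2, a monocyte marker, at 69.65 and 43.7 FPKM in MI and at 181, 269 and 246.5 in TAC. For Ly6c2 both MI libraries lay below all 17 other fibroblast libraries. Ly6c1, a related gene on the endothelial list, was close to it in each of these libraries. It was at 76.3 and 47.6 FPKM in MI and at 200, 304 and 278 in TAC. Whether reads are shared between Ly6c1 and Ly6c2 was not tested. Gpnmb, a glycoprotein of lipid-laden macrophages, was at 10.2 and 20.8 in MI and at 0.503, 0.377 and 0.417 in TAC (3.45, adjusted p = 8.73e-07, and 3.14). The lysozyme genes Lyz1 and Lyz2, whose near-identical reads may be shared, were 1.58 and 1.59 higher. Lyz1 was at 460.1 and 446.2 FPKM in MI and at 251.5, 135.5 and 101.2 in TAC. Lyz2 was at 456.1 and 450 in MI and at 251.8, 132.5 and 100.2 in TAC. Both are counted in the summed markers and make up much of them, and Ly6c2, which fell, is counted too. A sum without Lyz1 and Lyz2 was not taken, so the sums do not show that the other markers were higher in MI. Cd68, a defining marker of macrophages, was at 26.8 and 37.1 in MI and at 29.4, 18.5 and 14.4 in TAC and passed only with the trend removed (1.36, adjusted p = 0.0095; as deposited 0.64, adjusted p = 0.105, or 0.03 without TAC replicate 1). Ptprc, the leukocyte antigen CD45, was at 4.70 and 5.62 in MI and at 1.36, 0.694 and 0.377 in TAC (1.80, adjusted p = 6.62e-05, and 1.04), which with the trend removed did not pass without MI replicate 2 (adjusted p = 0.054). Sedentary libraries held 3.58 to 8.59 FPKM of Ptprc, and as deposited all sedentary, sham and MI libraries lay above all TAC and swim libraries. The summed macrophage markers were at 1255 and 2693 in sham, 1130 to 1715 in 3 day TAC and 1344 to 2007 in 4 day swim libraries. They were at 865 to 1128 in sedentary and 1056 to 1411 in 10 day swim libraries. Neutrophil markers summed to 6.91 and 8.37 FPKM in MI and to 5.08 to 9.98 in TAC. The part of these cells in the inflammatory results was not tested.

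Genes lower in MI began with those of endothelial cells. Of 22 endothelial markers, 8 fell, beside 16.6% of all genes, with a median of -0.57 (-0.67 with the trend removed), and 14 had both MI libraries below all TAC libraries (37.9% of all genes did). Fabp4, a fatty acid carrier of capillaries and fat cells, was at 71.3 and 43.5 FPKM in MI and at 281, 730 and 458 in TAC (-3.01, SE 0.47, adjusted p = 8.39e-05, and -2.67). Egfl7, a secreted endothelial factor, was at 2.85 and 1.63 in MI and at 9.47, 21.1 and 19.6 in TAC (-2.41, adjusted p = 6.26e-05, and -1.55). The groups did not overlap for either gene. Gpihbp1, which anchors lipoprotein lipase to capillaries and was named by the size of its change, fell by 2.70 (adjusted p = 6.49e-05). Pecam1, a defining marker, did not pass (-0.27, adjusted p = 0.587), at 12.5 and 10.3 in MI and at 11.9, 25.0 and 8.77 in TAC.

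The 22 endothelial markers summed to 257 and 174 FPKM in MI and to 660, 1401 and 934 in TAC, beside 265 to 369 in sedentary fibroblasts, so TAC lay above both. Of 18 genes of the Wnt and Notch pathways, 3 fell (16.7%, near the 16.6% of all genes) and 5 rose (27.8%, beside 11.8%). The genes that fell, Hes1, Hey1 and Heyl, are targets of the Notch receptor. Hes1 (-1.09, adjusted p = 0.0016) did not pass with a trend on length only removed (adjusted p = 0.0538). Its call in the fit on length and GC was lost when MI replicate 1 (0.057), MI replicate 2 (0.3), TAC replicate 1 (0.11) or TAC replicate 2 (0.095) was left out. Hey1 was at 2.55 and 1.44 in MI and at 5.78, 11.7 and 7.11 in TAC (-1.59, adjusted p = 0.000387, and -1.45), and Heyl at 2.12 and 1.43 against 7.84, 6.35 and 6.36 (-1.51, adjusted p = 4.8e-05, and -1.64). For Hey1 and Heyl, 10 day TAC lay above all 16 other fibroblast libraries. Sedentary libraries held 0.742 to 2.065 FPKM of Hey1 and 2.04 to 2.44 of Heyl. Jag1, a Notch ligand, went the other way, from 1.45, 1.64 and 0.881 in TAC to 14.8 and 11.4 in MI (2.60, adjusted p = 2.13e-07, and 2.06). The secreted Wnt antagonists Sfrp1 (1.55) and Sfrp2 (1.77) also rose. The part of endothelial transcripts in the falls of Hey1 and Heyl was not tested.

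Of 24 genes of resting fibroblasts, 5 fell (20.8%, beside 16.6% of all genes), 8 without MI replicate 1 and 3 without MI replicate 2. Their summed FPKM was 1973 and 960 in MI and 2467, 1807 and 1397 in TAC, overlapping ranges. Entpd2, an ectonucleotidase, was at 10.4 and 4.45 in MI and at 42.0, 31.9 and 26.8 in TAC (-2.11, adjusted p = 1.06e-05, and -1.55). Cd34, an adventitial progenitor antigen that endothelial cells also carry, was at 57.1 and 29.4 against 123, 132 and 91.6 (-1.45, adjusted p = 0.000113, and -1.55). Ly6a fell by 1.89. MI replicate 2 was the lower library for each of these genes.

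Genes of mitochondrial respiration were lower in MI as a block. Of 43 respiratory chain and ATP synthase subunits, all tested, 41 were lower as deposited and 33 in both fits, beside 30.1% and 16.6% of all genes. The median of -1.73 as deposited was -0.88 with the trend removed. These transcripts are short, with a median of 1046 bases beside 2796 over all genes. Atp5k, a small ATP synthase subunit, was at 25.4 and 27.6 FPKM in MI and at 134, 110 and 243 in TAC (-2.49, adjusted p = 2.3e-05, and -1.42). Ndufa2, of complex I, was at 13.2 and 12.4 against 53.2, 58.7 and 97.7 (-2.31, adjusted p = 3.15e-05, and -1.36). For both genes all sedentary, sham and MI libraries lay below all TAC and swim libraries. Of 23 fatty acid oxidation genes, 6 fell (26.1%, beside 16.6% of all genes), and fewer did so without MI replicate 2. Among them was Etfb, an electron carrier subunit (-1.86, adjusted p = 1.14e-05, and -0.81). For Etfb too, all sedentary, sham and MI libraries lay below all TAC and swim libraries.

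Cardiomyocyte transcripts, rich in such genes, moved with this block in part. Their 22 markers summed to 269 and 281 FPKM in MI and to 854, 257 and 1090 in TAC. Of 20 tested, 8 were lower as deposited (30.1% of all genes were) and 2 in both fits (10%, beside 16.6%). The count in both fits was 7 without TAC replicate 2 and 1 without TAC replicate 1 or 3. In TAC replicate 2, whose sum of 257 was below both MI libraries, Atp5k at 110 and Ndufa2 at 58.7 FPKM were above both MI libraries. In that library the cardiomyocyte markers Myl3 (29.2 FPKM), Tnnc1 (16.9), Csrp3 (8.92) and Myl4 (8.22) were also above both MI libraries. Another marker, Myh6 (2.76), was below both. The part of cardiomyocyte transcripts in the respiratory result was not tested. Myh6, the cardiac myosin heavy chain, was at 6.65 and 4.37 in MI and at 11.2, 2.76 and 7.69 in TAC, overlapping groups (-0.20, adjusted p = 0.789). Nppa, the atrial natriuretic peptide, did not pass either (-1.48, adjusted p = 0.0957), except as deposited without TAC replicate 2 (-2.17, adjusted p = 0.0165). Nppb, the B-type peptide of strained muscle, was at 1.47 and 1.46 in MI and at 12.5, 5.64 and 35.9 in TAC (-2.60, adjusted p = 0.00293, and -1.92). With the trend removed its call was lost without MI replicate 1 (adjusted p = 0.062), MI replicate 2 (adjusted p = 0.083) or the third TAC replicate (adjusted p = 0.059).

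Cytosolic ribosomal protein genes showed the same direction. Of 40 tested, 37 were lower as deposited and 26 in both fits, beside 30.1% and 16.6% of all genes. The median of -1.44 became -0.65 with the trend removed. Rps14 was at 113 and 108 FPKM in MI and at 606, 921 and 1207 in TAC (-2.98, adjusted p = 4.56e-06, and -1.91), and Rps18 at 78.6 and 92.9 against 276, 402 and 421 (-2.06, adjusted p = 3.05e-05, and -0.99). These genes are also short, at a median of 955 bases, and for both all sedentary, sham and MI libraries lay below all TAC and swim libraries. Ribosomal protein genes have many processed pseudogenes that can share reads.

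**Figure D4:**
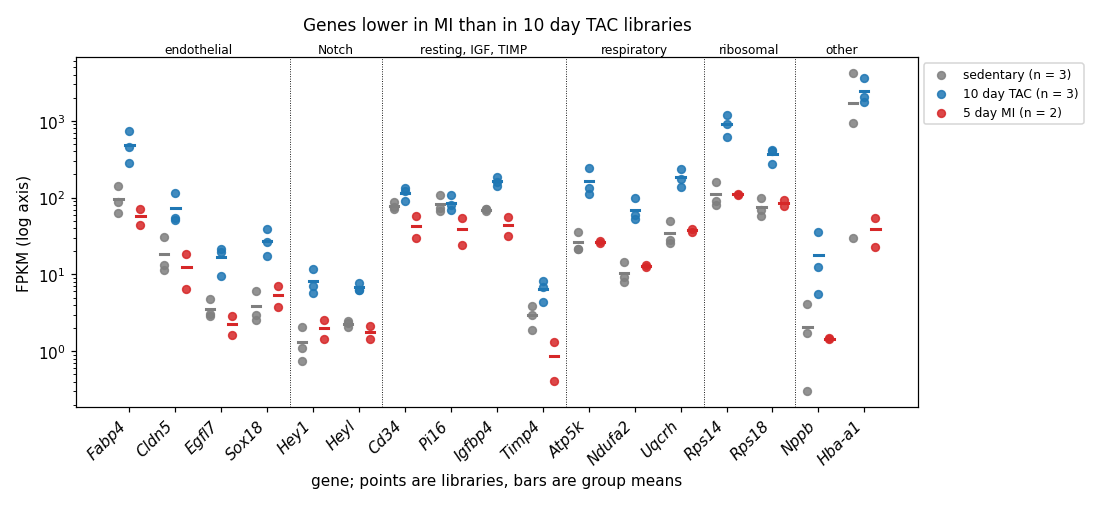
FPKM on a log axis of genes lower in MI, in each sedentary (grey, n = 3), 10 day TAC (blue, n = 3) and 5 day MI (red, n = 2) fibroblast library; bars are group means. Respiratory and ribosomal genes have sedentary and MI libraries side by side below TAC, while for Pi16, a gene of adventitial fibroblasts, the sedentary libraries overlap with TAC. Pi16 did not pass without MI replicate 2 (adjusted p = 0.1).

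Other large falls had no common role. Pdlim2, a scaffold protein that targets NF-kappaB for breakdown, was at 4.24 and 2.66 FPKM in MI and at 31.7, 30.9 and 42.3 in TAC (-3.02, adjusted p = 2.33e-06, and -2.27). For Pdlim2 all sedentary, sham and MI libraries lay below all TAC and swim libraries. Dbp, a transcription factor driven by the circadian clock, was at 1.63 and 0.506 against 8.56, 18.4 and 24.9 (-3.08, adjusted p = 0.000794, and -2.39). With the trend removed its call was lost without MI replicate 2 (adjusted p = 0.057), and the hour at which the tissue was taken is not in the labels. Lars2, a mitochondrial leucyl-tRNA synthetase, was at 273 and 194 in MI and at 726, 1635 and 3189 in TAC (-2.75, adjusted p = 0.000705, and -3.00), and the TAC library with the highest value was also the one with the most Rn45s. Alpha globin Hba-a1, a red blood cell transcript, was at 54.2 and 23.1 in MI and at 1749, 3641 and 2044 in TAC (-6.01, adjusted p = 0.00898, and -4.87), while sedentary libraries ranged from 29.4 to 4201. Its call was lost in both fits without MI replicate 2 (adjusted p = 0.073), and with the trend removed also when MI replicate 1 (adjusted p = 0.064) or the second TAC replicate (adjusted p = 0.066) was left out.

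Most cell-division genes were at low levels. Of 34 listed, 15 were below the filter and were not tested, and the 19 tested had a median of -0.07 beside -0.01 over all genes. In both fits 2 fell (10.5%, beside 16.6% of all genes), Tyms (-0.40, adjusted p = 0.0342) and Gins2 (-0.63, adjusted p = 0.0121), both of DNA synthesis. As deposited, Tyms did not pass without MI replicate 1 (adjusted p = 0.36), without TAC replicate 2 (0.092) or 3 (0.12), or with only the 5 libraries in the fit (adjusted p = 0.0895). Gins2 did not pass without MI replicate 1 (adjusted p = 0.2), and without MI replicate 1 the counts were 2 higher and 0 lower. Of the 15 below the filter, 7 had both MI libraries above all TAC libraries (Mki67, Top2a, Bub1, Kif11, Nusap1, Cenpf and Cenpe) and 1, Mcm2, had both below. Among all genes tested, which unlike these 15 passed the filter, 37.1% had both above and 37.9% both below. The shares over all genes below the filter were not taken, so these counts have no like background. Mki67, a marker of dividing cells, was listed at 0.487 and 0.862 FPKM in MI and at 0.0549, 0.0276 and 0.143 in TAC. Immediate early genes, which respond within minutes to stress and to cell handling, had 4 of 24 lower (16.7%, beside 16.6% of all genes), Fosb, Jund, Dusp1 and Btg2. The count was 0 without MI replicate 2 or TAC replicate 1 and 1 without TAC replicate 3.

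**Figure D5:**
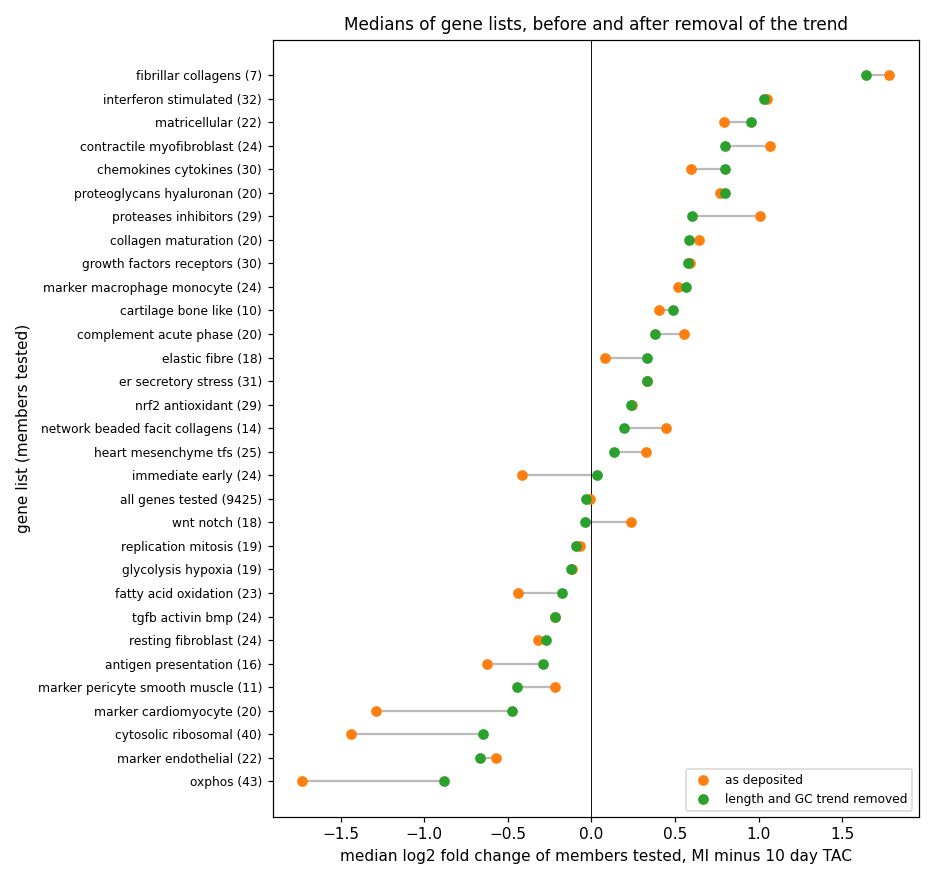
Median log2 fold change, MI minus 10 day TAC, over the tested members of each gene list with at least 5 of them, as deposited (orange) and with the length and GC trend removed (green), with the number of members in brackets. Among the lists drawn, fibrillar collagens are highest at 1.64 with the trend removed, and respiratory chain genes (oxphos), whose transcripts are short, are lowest, going from -1.73 to -0.88.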

How the data were processed

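Poly-A RNA was taken with a column kit and made into stranded libraries, per the labels' protocols. The authors deposited FPKM values for each library, made with Cufflinks 2.0.2 on mm10, per the submitters' processing notes. Which aligner and gene annotation were used, and how reads of multigene families were divided, is not given in the sources used here. No counts were given, so the depth of each library is unknown and limits the precision to an unknown degree. The authors' deposited comparison table also holds their p-values and q-values, and 44 columns of confidence bounds were not used. For 27 genes the symbol had been turned into a date and was left as given.

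FPKM values were fitted as log2(FPKM + 1) by limma 3.58.1 under R 4.3.3, with its trend and robust options, in 1 fit over the 19 fibroblast libraries. Genes had to reach an FPKM of 1 in 2 or more of them. The contrast was MI minus 10 day TAC, and the threshold an adjusted p of 0.05. For the trend-removed fit, splines of 4 degrees of freedom on log2 length and on GC content were subtracted in each library, with the longest basic transcript of GENCODE M21 for 22968 genes. That length can be wrong for short genes with a long variant. The test was also run on simulated data with 200 changed genes among 9425. There, 66% of the genes changed by 1 log2 unit were called and 95% of those changed by 2, and 5.85% of its calls were false. The simulated MI and TAC groups had no difference in length trend, and their noise was independent between genes. The share of false calls in the real comparison is therefore not measured by it.

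The comparison, the gene lists and the rule for names were chosen with earlier results of these data known. Genes were named as the 12 largest rises and falls among shared calls with a mean FPKM of 5 or more in the group where they were high and groups that did not overlap, as up to 5 called members of each list, or as fixed names, and other members could be given with their values. Haemoglobin values and those of cell-division genes below the filter were looked up after the results were seen. Replicate numbers follow the order of the samples. Promoter windows come from the RefSeq table for GRCm38.p6, which held windows for 6881 of the genes tested. Alternatives were other pseudocounts, filters, scalings, fits and length corrections, and each library left out.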

Additional observations from a re-analysis of the deposited data

How the results depend on the processing

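With no filter on low values, 3971 genes were higher as deposited, and 4666 were shared between the fits (2292 higher and 2374 lower). At an FPKM of at least 5, where fewer genes are tested, 2507 were called as deposited (879 higher and 1628 lower) and 1329 were shared (368 higher and 961 lower). With the trend removed, 1513 genes were higher on the longest and 1491 on the median transcript length, an alternative chosen after seeing the data. The rank correlation of fold change with length, 0.576 as deposited, was 0.00877 with the trend on length and GC removed, 0.0176 with that on length only and 0.0414 with the median length, by construction. Without each library in turn, it ranged from 0.54 to 0.601, the calls as deposited from 3839 to 5155 (higher from 1701 to 2565, lower from 2138 to 2656) and the shared calls from 1325 to 2406 (higher from 481 to 1065, lower from 844 to 1436). The lowest count in each case was without MI replicate 2, and a single MI library is then assumed to vary like the other groups. The other counts stayed within 1.5 times under a pseudocount of 0.1, scaling to the same median, only the 5 libraries and no trend or robust setting.

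Of the 111 genes named, 4 turned direction without a library, and the turned values did not pass the test. These were Tcf21 (0.15 without MI replicate 2, range -1.42 to 0.15), Eln (0.0014 without MI replicate 2, range -1.39 to 0.0014), Pecam1 (0.14 without TAC replicate 2, range -0.57 to 0.14) and Myh6 (0.05 without MI replicate 2 and 0.16 without TAC replicate 1, range -0.69 to 0.16). Over the named genes and alternatives, 1466 results kept direction and side of the threshold, 45 no longer passed and 21 newly passed. The count of interferon-stimulated genes shared between the fits was 3 with the median transcript length. The causes of these changes were not tested. No paired analysis was possible because the groups share fewer than 2 replicate numbers in the labels. Without read counts, the depth behind a low FPKM is unknown.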
